A study of Mus musculus with 18 samples.

Results

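The genes described here are 10 feedback inhibitors and transcriptional targets of the extracellular signal-regulated kinase (ERK) pathway: *Spry2*, *Spry4*, *Spred1*, *Spred2*, *Il17rd*, *Dusp4*, *Dusp6*, *Etv4*, *Etv5* and *Egr1*. They were chosen by gene symbol, all 10 were found among the 24369 genes of the deposited expression table, and all 10 passed the filter on low counts in both experiments. Of these genes, 5 encode inhibitors that act on the receptor or at the level of Ras and Raf, 2 encode phosphatases that act on mitogen-activated protein (MAP) kinases, and 3 encode transcription factors.

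In mouse embryonic stem cells (mESCs), fibroblast growth factor 4 (Fgf4) made by the cells binds Fgf receptors, and the signal passes through the adaptors Frs2 and Grb2 to Ras, Raf, Mek and Erk. Active Erk phosphorylates transcription factors, and the genes that are then transcribed include inhibitors of the same pathway, so that the mRNAs of Sprouty, Spred and Dusp genes are widely read as a record of recent pathway activity. Erk signaling is known to be needed for mESCs to leave naive pluripotency, and a Mek inhibitor is part of the 2iL medium in which naive cells are kept.

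RNA sequencing was analysed for 12 libraries of a differentiation time course and 6 libraries of sorted GFP+ cells. The time course held wild-type mESCs with the Rex1GFP reporter before differentiation (day 0) and on days 1, 2 and 3 of differentiation, with 3 libraries per day. The sorted cells were the Rex1GFP-positive fraction of wild-type cells, of *Nprl2* knockout (KO) cells and of *Tsc2* KO cells, with 2 libraries per genotype. Rex1 is the product of *Zfp42*, a marker of naive cells, and all cells derive from a line of E14 mESCs that carries a GFP reporter in 1 *Rex1* allele and Cas9, driven by the EF1α promoter, in the *Rosa26* locus. Wild-type therefore means this Cas9-expressing reporter line, and the KO cells carry in addition a deletion of a critical exon made with a pair of guide RNAs. *Nprl2* encodes a subunit of the Gator1 complex and *Tsc2* encodes tuberin, and both proteins restrain the kinase complex mTORC1. The study routinely cultured its cells in serum and LIF on mouse embryonic fibroblast feeders and differentiated them in a medium without LIF and inhibitors. Its sequencing methods name no other medium for the sorted cells. For the day 0 cells the medium and any sorting are not stated in the sources used here, and the study's differentiation experiments started from serum and LIF in some cases and from 2iL in its screen. Whether the 2 libraries of a KO genotype came from separate clones is not given either. A Mek inhibitor in the day 0 medium, if it was there, cannot be told apart from the day in any comparison with day 0. Where separate cultures are not named, p-values measure only the spread between these libraries, which may be technical.

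Total estimated counts lay between 12503005 and 15305054 in the time course and between 8610357 and 13780861 in the sorted cells, and no pair of libraries was a duplicate. Levels are given as TPM, a unit corrected for transcript length and for the total of each library, so that genes can be compared. Most markers of mESCs fitted the labels: *Pou5f1*, the central pluripotency factor, was at 1102 TPM or more in every library, and the summed level of 5 mESC markers was 3960 to 4121 TPM on day 0 and 1687 to 1989 TPM on day 3. Of these 5, 4 were lower on day 3, while *Lin28a* rose from a mean of 196 TPM on day 0 to 443 TPM. The summed level of 8 feeder fibroblast markers was 161 to 239 TPM in wild-type, 183 to 187 TPM in *Nprl2* KO and 212 and 50.8 TPM in *Tsc2* KO. In the time course it was 10.7 to 21.7 TPM on day 0 and 74.8 to 109.9 TPM on day 3, where *Acta2* (37.6 to 68.4 TPM) and *Thy1* (26.8 to 33.3 TPM) made up most of it and the collagen genes *Col1a1* and *Col1a2* stayed at or below 2.81 TPM. The part of feeder cells in the results was not tested. Primitive endoderm markers, 7 genes, summed to 2.85 to 12.9 TPM in all 18 libraries. Replicate 3 of day 0 held the highest TPM of its day for 9 of the 10 genes and the lowest for *Egr1*. In the sorted cells replicate 1 was above replicate 2 for all 10 in *Tsc2* KO, for 9 in wild-type and for 7 in *Nprl2* KO. Results are therefore also given without these libraries where that changed them.

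Upstream sequences were found in RefSeq for 6 of the 10 genes, and 3 are shown, each of 250 bases that end just before the transcription start. Those of *Dusp6* and *Spry2* belong to an inhibitor that rose and an inhibitor that fell in the time course, and that of *Spred2* holds the most matches to a site of the Etv4 and Etv5 family. Capitals mark AGGAAG or, where the match is on the other strand, CTTCCT, and all sequences run 5′ to 3′ on the strand of the gene in build GRCm38.p6.
Dusp6 (chr10:99262981-99263230, plus strand): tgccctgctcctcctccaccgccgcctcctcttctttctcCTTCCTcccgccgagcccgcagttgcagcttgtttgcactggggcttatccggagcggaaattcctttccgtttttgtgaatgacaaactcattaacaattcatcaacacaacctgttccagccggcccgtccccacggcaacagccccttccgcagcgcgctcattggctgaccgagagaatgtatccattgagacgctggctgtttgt
Spred2 (chr11:19924192-19924441, plus strand): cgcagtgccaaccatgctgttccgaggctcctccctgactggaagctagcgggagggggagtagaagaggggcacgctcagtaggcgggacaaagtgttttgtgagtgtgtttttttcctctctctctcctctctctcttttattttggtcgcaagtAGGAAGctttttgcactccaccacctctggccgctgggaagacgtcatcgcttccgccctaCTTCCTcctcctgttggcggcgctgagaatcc
Spry2 (chr14:105896820-105897069, minus strand): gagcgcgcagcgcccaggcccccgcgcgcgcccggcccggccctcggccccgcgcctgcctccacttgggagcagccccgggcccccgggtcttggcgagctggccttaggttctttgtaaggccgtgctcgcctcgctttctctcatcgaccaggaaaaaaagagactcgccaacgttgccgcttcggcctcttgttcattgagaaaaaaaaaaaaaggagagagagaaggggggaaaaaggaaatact
The match in *Dusp6* starts at position -210 and those in *Spred2* at -93 and -32, counted from the transcription start. On both strands, AGGAAG occurred in 2 of the 6 genes and in 29.5% of 32851 mouse promoters of the same length. The ETS core CCGGAA, the AP-1 site TGANTCA and the cAMP response element TGACGTCA occurred in 12.03%, 6.75% and 1.55% of these promoters and in 0 of the 6 genes. Each motif was counted on its own, whether or not its bases overlapped another motif, and a match is a description of the sequence and not a binding site.

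The first question was how the 10 genes moved as the cells left naive pluripotency. Between day 0 and day 1, 7 of the 10 genes rose and 2 fell in edgeR's quasi-likelihood test at an adjusted p under 0.05, with *Etv5* the exception. Adjusted p-values here are Benjamini-Hochberg values over all genes tested, and fold changes are on the log2 scale with their standard error (SE). The day of the comparison moved much of the transcriptome: of 14382 genes tested, 60.9% passed the same test, 30.1% higher and 30.8% lower on day 1. The sizes of the changes differed widely among the 10. *Dusp4* was 18.1-fold higher on day 1 by mean TPM and ranked 149 of 14382 genes by the size of its change, while *Spred2* was 1.17-fold higher and ranked 8786. The median absolute log2 fold change of the 10 genes was 0.66, against 0.40 over all genes tested. By day 3, 5 of the 10 were above day 0 and 3 below, with a background of 70.9% (35.0% higher and 35.9% lower). In these bulk samples, fewer cells of a type and less RNA per cell cannot be told apart.

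**Figure D1:**
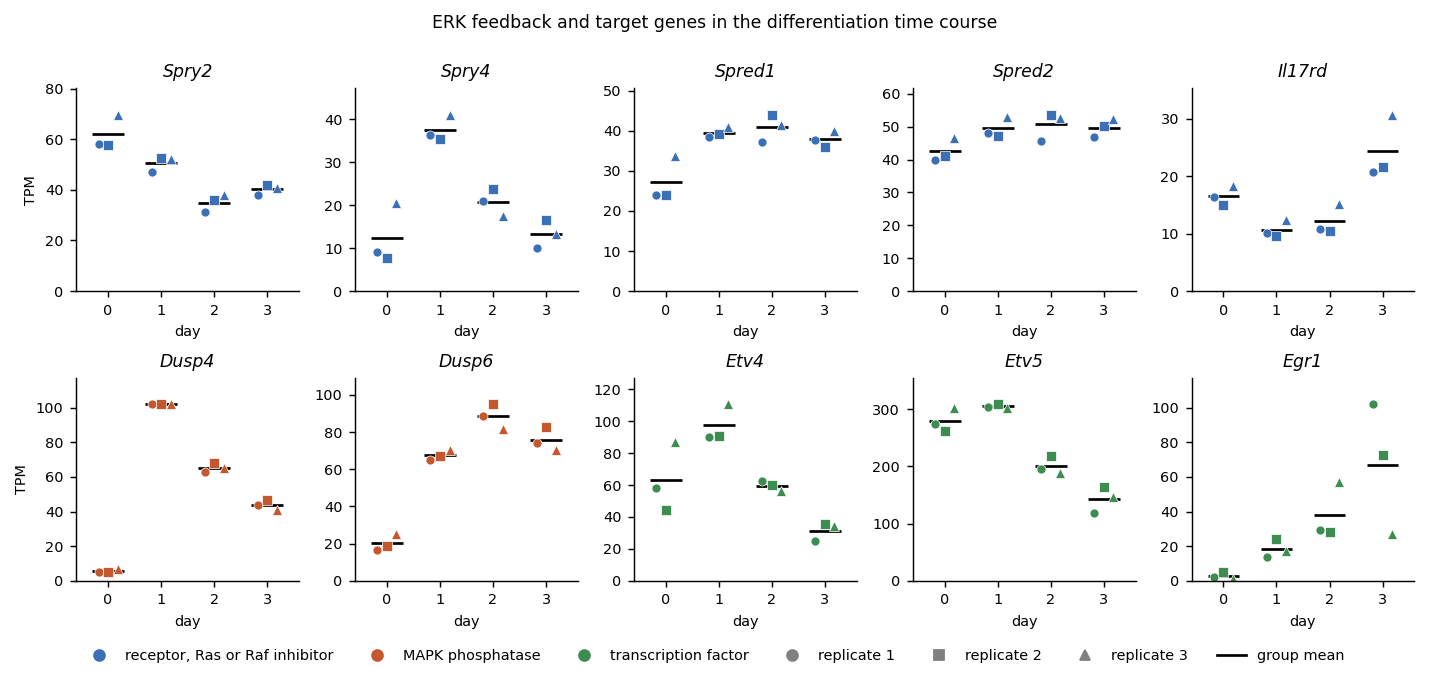
TPM (y axis, linear from 0) of the 10 genes on days 0 to 3 of differentiation (x axis), with 1 symbol per library, symbol shapes for replicates 1 to 3, colours for the role of the gene and bars for the mean of 3 libraries. *Dusp4* and *Dusp6* stood apart from day 0 in every later library, *Etv4*, *Etv5* and *Spry4* were highest on day 1, and the 3 day 3 libraries of *Egr1* spread from 27.0 to 102 TPM.

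Both phosphatases rose on day 1 and were above day 0 on all later days. *Dusp4* (chr8:34807610-34819894) encodes a nuclear dual-specificity phosphatase that removes phosphates from Erk and other MAP kinases. Its level was 5.29, 4.84 and 6.79 TPM in the 3 day 0 libraries and 102 TPM in each of the 3 day 1 libraries. It was 63.04, 68.2 and 65.1 TPM on day 2 and 43.9, 46.6 and 41.2 TPM on day 3. No day overlapped another, and after the rise to day 1 each later day lay below the day before it. The log2 fold change over day 0 was 4.25 ± 0.10 (SE, n = 3 per day) on day 1, with an adjusted p of 4.4e-17, 3.50 ± 0.10 on day 2 and 2.88 ± 0.10 on day 3. The falls from day 1 to day 2, of -0.75 ± 0.07, and from day 2 to day 3, of -0.62 ± 0.08, passed the test (adjusted p = 6.8e-08 and 1.5e-05). At the lowest, 82 counts were behind a *Dusp4* value.

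*Dusp6* (chr10:99263231-99267489), whose upstream sequence is shown above, encodes a cytoplasmic phosphatase that is selective for Erk. It measured 16.7, 18.9 and 25.2 TPM on day 0, then 65.1, 67.0 and 70.2 TPM on day 1. On day 2 it was at 88.7, 95.0 and 81.8 TPM and on day 3 at 74.2, 82.8 and 70.3 TPM. All 9 later libraries were above the 3 of day 0, and unlike *Dusp4* the gene had its highest mean on day 2. The log2 fold change over day 0 was 1.80 ± 0.12 on day 1, 2.08 ± 0.12 on day 2 and 1.82 ± 0.12 on day 3, and the highest of the 3 adjusted p-values was 1.6e-08. The step from day 1 to day 2 was 0.28 ± 0.11 and passed narrowly (adjusted p = 0.0427). It was lost without any 1 of day 1 replicates 1, 2 and 3 or day 2 replicates 1 and 2 (adjusted p of 0.116, 0.0950, 0.0772, 0.101 and 0.151), and also without day 0 replicate 2 (0.0573), without day 3 replicate 1 (0.0587), with no filter on low counts (0.0818) and with a replicate block (0.0611). The step from day 2 to day 3, -0.27 ± 0.11, did not pass (adjusted p = 0.0864), whereas it did without day 0 replicates 1 or 3 (0.0440 and 0.0106), without day 3 replicate 2 (0.0487) and with only these 2 days in the fit (0.0289).

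The 5 receptor, Ras and Raf level inhibitors did not move as a group. Sprouty proteins are inducible inhibitors of signaling from receptor tyrosine kinases to Ras and Raf, yet *Spry2* and *Spry4* took different courses. *Spry2* (chr14:105891947-105896819) measured 58.2, 57.8 and 69.8 TPM on day 0 and 47.0, 52.6 and 52.3 TPM on day 1. It was at 31.1, 35.9 and 37.9 TPM on day 2 and 37.8, 41.8 and 40.9 TPM on day 3. Every day 0 library was above every later library. The fall of -0.87 ± 0.09 on day 2 and of -0.71 ± 0.09 on day 3 passed the test (adjusted p = 4e-08 and 4.2e-07), as did the step of -0.65 ± 0.09 from day 1 to day 2 (3.4e-06). The smaller difference of -0.22 ± 0.08 on day 1 (adjusted p = 0.0288) became -0.12 without day 0 replicate 3 (0.203), and it also missed the threshold without day 1 replicate 1 (0.134) or replicate 3 (0.0521) and with DESeq2 (0.0621).

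*Spry4* (chr18:38586247-38601347) was at 8.997, 7.60 and 20.6 TPM on day 0 and at 36.2, 35.5 and 41.1 TPM on day 1. It measured 21.0, 23.7 and 17.4 TPM on day 2 and 10.1, 16.5 and 13.3 TPM on day 3. The gene thus stood above day 0 in every day 1 library, while days 2 and 3 overlapped day 0 only through its replicate 3. The rise on day 1 was 1.68 ± 0.35 on the log2 scale (adjusted p = 0.00286), and the fall from day 1 to day 2 was -0.97 ± 0.34 (0.0328). The day 2 and day 3 differences from day 0 were 0.71 ± 0.36 and 0.02 ± 0.37 and did not pass (0.114 and 0.959). Without day 0 replicate 3 they were 1.29 and 0.61 and passed (4.6e-04 and 0.0313), and the day 2 difference also passed with limma on TPM (0.0375). The step from day 2 to day 3, -0.68 ± 0.36 (0.185), passed without day 0 replicate 3 (0.0158) and with only these 2 days in the fit (0.0397). The fall from day 1 to day 2 was lost without any 1 of the 3 day 1 libraries (0.0659, 0.0620 and 0.0816), without day 2 replicate 1 or 3 (0.0721 and 0.0967) and with a replicate block (0.0524).

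Spred proteins hold Ras in its inactive state by recruiting the Ras GTPase-activating protein neurofibromin. *Spred1* (chr2:117121071-117182279) was at 23.9, 24.1 and 33.7 TPM on day 0 and at 38.4, 39.1 and 41.0 TPM on day 1. It stayed at 37.1, 44.0 and 41.5 TPM on day 2 and 37.7, 35.9 and 40.0 TPM on day 3. All 9 later libraries were above day 0, and days 1 to 3 overlapped each other. The differences from day 0 were 0.62 ± 0.10, 0.56 ± 0.10 and 0.39 ± 0.10 (adjusted p = 7.8e-05, 1.7e-04 and 0.00316). The step from day 2 to day 3, -0.17 ± 0.10 (0.218), passed only without day 0 replicate 3 (0.0388) among the alternatives tried. *Spred1* is the member with more than 1 transcript in the files, and its longer transcript, of 6319 bases, held between 95.5% and 100% of its TPM in each library.

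*Spred2* (chr11:19924442-20024026) differed from day 0 by at most 0.29 on the log2 scale. It measured 39.9, 41.0 and 46.5 TPM on day 0, 48.2, 47.2 and 53.1 TPM on day 1, 45.7, 53.7 and 52.8 TPM on day 2 and 46.8, 50.1 and 52.2 TPM on day 3. Its differences from day 0 were 0.29 ± 0.07 on day 1 (adjusted p = 0.00243), 0.21 ± 0.07 on day 2 (0.0176) and 0.14 ± 0.07 on day 3 (0.102). The day 2 call was lost without day 0 replicate 1 or 2 (0.0973 and 0.0838) and without day 2 replicate 2 or 3 (0.0861 and 0.0575). On day 3 the difference passed without day 0 replicate 3 (0.0166), with upper-quartile scaling (0.0340) and with limma on TPM (0.0216).

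*Il17rd* (chr14:27038964-27107286), also called Sef, encodes a membrane protein that inhibits Fgf signaling. It was the only member that was lower on day 1 and higher on day 3 than on day 0. Its values were 16.4, 15.0 and 18.3 TPM on day 0, 10.2, 9.65 and 12.3 TPM on day 1, 10.8, 10.5 and 15.1 TPM on day 2 and 20.8, 21.7 and 30.8 TPM on day 3. Day 3 stood above every other library of the time course, and day 1 below day 0. The differences from day 0 were -0.56 ± 0.17, -0.49 ± 0.17 and 0.47 ± 0.16 (adjusted p = 0.0152, 0.0250 and 0.0242), and the step from day 2 to day 3 was 0.96 ± 0.17 (0.00180). The step from day 2 to day 3 kept its call in every alternative tried, but the comparisons with day 0 rested on single libraries. The day 1 call was lost without day 0 replicate 3 (0.0654) or day 1 replicate 2 (0.0531), the day 2 call without day 0 replicate 3 (0.0986) or day 2 replicates 1 or 2 (0.0787 and 0.0891), and the day 3 call without day 0 replicates 1 or 2 (0.0604 and 0.0972), without day 3 replicate 3 (0.0703) and with no filter on low counts (0.0523).

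**Figure D2:**
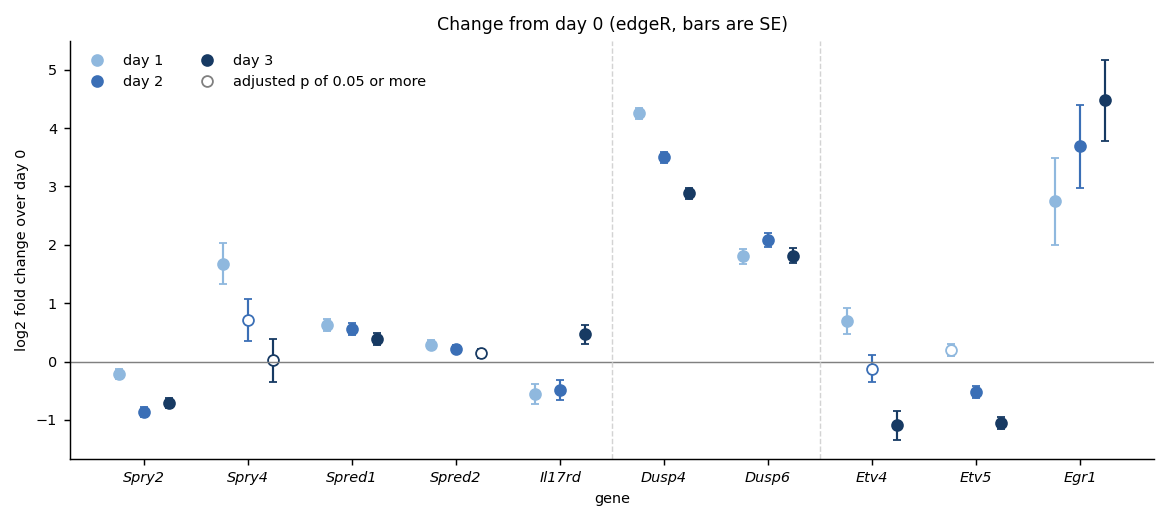
Log2 fold change over day 0 (y axis) of the 10 genes (x axis) on days 1, 2 and 3, from edgeR, with bars of 1 SE and open symbols where the adjusted p was 0.05 or more. *Dusp4*, *Dusp6* and *Egr1* were at 1.80 or more on all 3 days, *Etv4* went from 0.70 to -1.09, and the changes of the Spry, Spred and *Il17rd* genes other than *Spry4* stayed between -0.87 and 0.62.

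Among the transcription factors, *Etv4* and *Etv5* fell late and *Egr1* rose. *Etv4* and *Etv5* encode ETS factors of the Pea3 family, which are induced by Fgf signaling. *Etv5* (chr16:22381313-22439570) was the most abundant member in every group. It measured 273, 261 and 303 TPM on day 0 and 303, 308 and 302 TPM on day 1. It was at 195, 218 and 188 TPM on day 2 and at 118, 164 and 146 TPM on day 3. Days 0 and 1 overlapped, and days 2 and 3 lay below both and apart from each other. The difference of 0.20 ± 0.10 on day 1 did not pass (adjusted p = 0.0980), although it did with only these 2 days in the fit (0.0138) and without day 3 replicate 1 or 2 (0.0275 and 0.0372). The falls of -0.52 ± 0.10 on day 2 and -1.06 ± 0.10 on day 3 passed (3.2e-04 and 2.3e-07), as did the steps from day 1 to day 2, -0.72 ± 0.10 (2.1e-05), and from day 2 to day 3, -0.54 ± 0.10 (0.00122).

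*Etv4* (chr11:101769747-101785310) spread widely on day 0, at 58.2, 44.1 and 87.1 TPM. It was at 90.4, 91.1 and 111 TPM on day 1, 62.3, 59.9 and 56.0 TPM on day 2 and 24.8, 35.3 and 34.0 TPM on day 3. Day 1 was above all other days and day 3 below all other days. Against day 0 the difference was 0.70 ± 0.23 on day 1 (adjusted p = 0.0250), -0.13 ± 0.23 on day 2 (0.656) and -1.09 ± 0.24 on day 3 (0.00285). The steps from day 1 to day 2, -0.82 ± 0.23, and from day 2 to day 3, -0.97 ± 0.24, passed (0.0117 and 0.0160). The day 1 call was lost without day 0 replicate 1 or 2 (0.0754 and 0.0546), without day 1 replicate 3 (0.0751) and with only these 2 days in the fit (0.0955). The step to day 3 was lost without day 2 replicate 1 or 2 (0.0507 and 0.0526) or day 3 replicate 1 (0.0634).

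*Egr1* (chr18:34861207-34864956) encodes a zinc-finger factor and is an immediate-early gene, transcribed within minutes of Erk activation and also of cell dissociation. It was at 2.36, 4.81 and 1.14 TPM on day 0, at 13.5, 24.05 and 17.4 TPM on day 1, at 29.4, 28.4 and 56.8 TPM on day 2 and at 102, 72.5 and 27.0 TPM on day 3. All 9 later libraries were above day 0, while days 2 and 3 overlapped. The rise over day 0 was 2.75 ± 0.75, 3.69 ± 0.71 and 4.48 ± 0.69 on the log2 scale (adjusted p = 0.0116, 0.00162 and 3.8e-04), and the steps of 0.94 ± 0.55 from day 1 to day 2 and 0.79 ± 0.51 from day 2 to day 3 did not pass (0.171 and 0.282). Without day 0 replicate 2, the highest of its day, the rises were 3.46, 4.39 and 5.19, and all 3 passed. The SE of *Egr1* was the largest of the 10 genes in each of these comparisons. Other immediate-early genes spread in the same order over the day 3 libraries: *Fos* was at 51.0, 20.4 and 6.96 TPM in replicates 1 to 3, *Fosb* at 17.6, 5.48 and 1.44 TPM, and the summed level of 8 immediate-early genes of cell dissociation, which include *Fos* and *Fosb* but not *Egr1*, at 447, 316 and 267 TPM. That sum was 209 to 235 TPM on day 0 and 158 to 172 TPM on day 1. The part of dissociation in the level of *Egr1* was not tested on any day.

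The order of the 10 genes by level per transcript length therefore changed. On day 0 it ran from *Etv5* (279 TPM ± 21.5, SD, n = 3) through *Etv4* (63.1 ± 21.9), *Spry2* (61.9 ± 6.81), *Spred2* (42.5 ± 3.56) and *Spred1* (27.2 ± 5.63) to *Dusp4* (5.64 ± 1.02) and *Egr1* (2.77 ± 1.87). The day 0 libraries of *Etv4* and *Spry2* overlapped, as did those of *Spred1* and *Dusp6*, *Dusp6* and *Il17rd*, and *Il17rd* and *Spry4*. *Dusp4* moved from the ninth place to the second on day 1, where its 102 TPM ± 0.0740 overlapped the 97.4 ± 11.6 of *Etv4*. On day 3 *Etv5* was still the highest (142 ± 23.2), followed by *Dusp6* (75.7 ± 6.38) and *Egr1* (67.2 ± 37.8), which overlapped, and *Spry4* was the lowest (13.3 ± 3.21). The sum of the 10 means was 531 TPM on day 0, 778 TPM on day 1, 611 TPM on day 2 and 526 TPM on day 3.

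From one day to the next, 6 of the 10 genes passed between days 1 and 2, with *Dusp6* higher and *Spry2*, *Spry4*, *Dusp4*, *Etv4* and *Etv5* lower, against 62.1% of all genes tested (32.5% higher and 29.6% lower). Between days 2 and 3, *Il17rd* was higher and *Dusp4*, *Etv4* and *Etv5* were lower, 4 of 10 against 31.5% of all genes (15.9% higher and 15.6% lower). That count was 7 without day 0 replicate 3, which takes part in the shared estimate of the spread, and 3 without day 2 replicate 1. Between days 0 and 2, 5 of the 10 rose (*Spred1*, *Spred2*, *Dusp4*, *Dusp6* and *Egr1*) and 3 fell (*Spry2*, *Il17rd* and *Etv5*), against 66.6% of all genes (34.2% higher and 32.4% lower). Day 0 is shared by the 3 comparisons with it, so their counts are not independent.

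The other genes of the pathway were described by lists of their role. Over all genes tested, 60.9% passed on day 1, 30.1% higher and 30.8% lower. On day 3 the share was 70.9%, with 35.0% higher and 35.9% lower. On day 1, 3 of the 8 Fgf ligands and receptors tested were higher: *Fgf5*, a ligand of the formative state, at 7.18 ± 0.20, *Fgf15* at 4.71 ± 0.36 and the receptor gene *Fgfr2* at 2.29 ± 0.26 (log2 fold change ± SE, adjusted p of 2.3e-15, 1.8e-07 and 2.1e-05 in edgeR's test). *Fgf5* was at 0.258 to 0.478 TPM on day 0, from 4 to 7 counts, and at 42.0 to 51.3 TPM on day 1. *Fgf4*, the main ligand of naive cells, was at 168, 174 and 168 TPM on day 0 and at 233, 244 and 235 TPM on day 1, where the difference of 0.55 ± 0.22 missed the threshold (0.0527). By day 3 *Fgf4* had fallen by 2.47 on the log2 scale to between 20.9 and 44.7 TPM (1.2e-05), and *Fgfr1*, the main receptor gene of mESCs, was higher by 0.89 ± 0.07 (3.9e-10) at 74.0 to 89.4 TPM against 39.0 to 42.2 TPM on day 0. Of the 8 tested, 5 were higher and 2 lower on day 3, with *Fgf5* at 7.44 ± 0.19, *Fgf8* at 4.02 ± 0.55 and *Fgf15* at 3.96 ± 0.38. *Fgf8* had 3, 7 and 1 counts on day 0 and 34, 58 and 98 on day 3.

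Adaptors and Ras regulators passed in 11 of 12 cases on day 1, 8 of them higher, beside 60.9% of all genes tested. The docking protein gene *Gab1* was among the higher (0.70 ± 0.07), while *Sos2*, a Ras exchange factor gene, was lower (-0.61 ± 0.18). On day 3 all 12 passed, 8 higher and 4 lower, beside 70.9% of all genes tested. *Gab1* was then 1.41 lower on the log2 scale than on day 0 (-1.41 ± 0.07), with *Sos2* higher (1.11 ± 0.15). Of the 11 Raf, Mek, Erk and Rsk kinase genes, 9 passed on day 1, 5 of them higher. *Braf* was higher (1.60 ± 0.08), as was the Erk substrate kinase gene *Rps6ka1* (0.54 ± 0.06), and the scaffold gene *Ksr1* was lower (-0.72 ± 0.18). On day 3, 4 of the 11 were higher and 4 lower, with *Mapk3*, which encodes Erk1, at 1.38 ± 0.07, *Rps6ka1* at -0.90 ± 0.06 and *Ksr1* at -0.81 ± 0.18. The highest adjusted p of the genes named in this paragraph was 0.00577, in edgeR's test.

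Of 23 other Erk-induced and feedback genes, 21 were tested, and 12 were higher and 3 lower on day 1 and 14 higher and 2 lower on day 3. Over all genes tested, 30.1% were higher and 30.8% lower on day 1, and 35.0% higher and 35.9% lower on day 3. *Spred3*, the third Spred gene, was at 4.52, 6.66 and 4.85 TPM on day 0 and at 46.0, 48.3 and 49.4 TPM on day 3, a change of 3.06 ± 0.11 (adjusted p = 1.8e-14). *Egr2* had no counts on day 0 and 80, 47 and 11 counts in day 3 replicates 1 to 3, which is at least 14.7-fold higher when day 0 is set to the floor of 3 counts per library. *Spry3* had 3, 0 and 1 counts on day 0, 8, 9 and 3 on day 1 and 20, 16 and 21 on day 3, and it passed on both days (adjusted p = 0.0111 and 1.9e-05). On day 1 *Fos* was lower (-3.54 ± 1.04, adjusted p = 0.0170), as was *Elk3*, an ETS cofactor gene of the serum response (-2.36 ± 0.20, 5.3e-09). The list medians of log2 fold change on day 1 were 0.56 for ligands and receptors, 0.27 for adaptors, 0.10 for kinases and 0.73 for the other induced genes, beside 0.00065 over all genes tested, and on day 3 they were 1.89, 0.38, -0.056 and 1.06 beside -0.013.

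**Figure D3:**
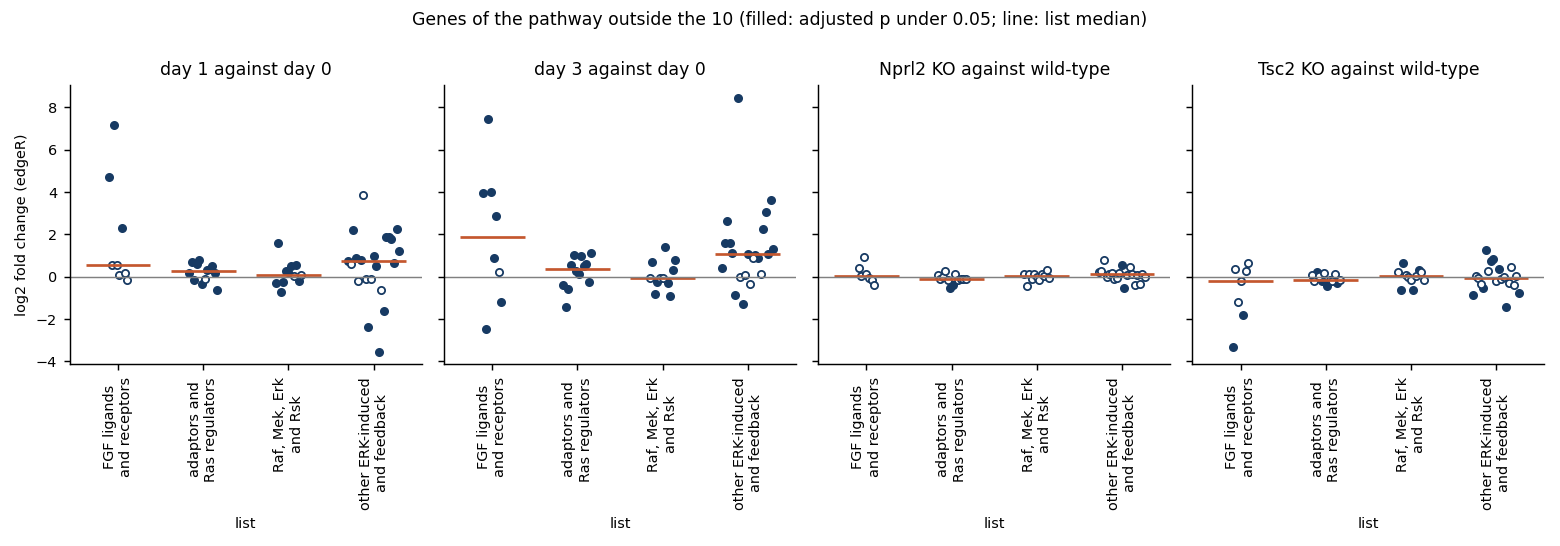
Log2 fold change from edgeR (y axis) of the pathway genes outside the 10, in 4 lists by role (x axis), for days 1 and 3 against day 0 and for each KO against wild-type. Filled symbols passed an adjusted p under 0.05 and the line is the median of the list, which was 1.89 for Fgf ligands and receptors on day 3 and 0.044 in *Nprl2* KO.

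The course of *Dusp6* and that of *Spry4* were each compared with all other genes tested, by Pearson's correlation of log2(TPM + 1) over the 12 libraries, which share their 4 days, so that any gene with the same order of days scores high. The 5 genes closest to *Dusp6* were *Dnmt3b* (r of 0.991), *Lin28a* (0.990), *Xpo7* (0.989), *Pm20d2* (0.988) and *Trio* (0.988). *Dnmt3b*, a DNA methyltransferase gene, had means of 100.4, 868, 1283 and 1062 TPM on days 0 to 3. The 5 closest to *Spry4* were *Myc* (0.984), *Ddx56* (0.976), *Ston2* (0.972), *Dhx8* (0.964) and *Srpr* (0.959). *Myc* had means of 18.6, 64.8, 28.0 and 21.5 TPM, and in the day 0 libraries it was at 13.9, 11.8 and 30.3 TPM, high in the same replicate 3 as *Spry4*.

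The second question was how the same genes stood in GFP+ cells that lacked *Nprl2* or *Tsc2*. The targeted genes followed the labels. *Nprl2* was at 16.1 and 17.0 TPM in wild-type, at 8.09 and 8.65 TPM in *Nprl2* KO and at 16.5 and 20.8 TPM in *Tsc2* KO, and *Tsc2* was at 45.0 and 44.9, 45.5 and 41.8, and 18.8 and 20.3 TPM in the same order. *Nprl2* changed in its own KO by -0.96 ± 0.18 (adjusted p = 0.00888) and *Tsc2* by -1.23 ± 0.08 (9.7e-07) in edgeR's test, with counts taken over whole transcripts and not over the deleted exon alone. Of the 10 members, 3 passed in *Nprl2* KO against wild-type, 1 higher and 2 lower, where 6.43% of 13725 genes passed (2.78% higher and 3.66% lower). In *Tsc2* KO, 7 passed, 1 higher and 6 lower, with a background of 29.1% (14.9% higher and 14.2% lower). With DESeq2 and with limma on TPM, 6 passed in *Tsc2* KO, and 4 and 2 passed in *Nprl2* KO. With *Nprl2* lost, the median log2 fold change of the 10 was -0.22, and with *Tsc2* lost it was -0.44, beside 0.00060 and 0.0048 over all genes tested, and the median absolute change was 0.30 against 0.17 and 0.56 against 0.26. The count in *Nprl2* KO was 1 without wild-type replicate 1 or 2 or without *Nprl2* KO replicate 1. Both comparisons use the same 2 wild-type libraries. In *Tsc2* KO the 747 genes tested on chromosome 1 had a median log2 fold change of 0.37. The medians of the other chromosomes lay between -0.114 and 0.037, and in *Nprl2* KO that of chromosome 1 was -0.0078. None of the 10 members lies on chromosome 1. The part of this shift in the background of 29.1% was not tested. In *Nprl2* KO, 3 of the 8 immediate-early genes of cell dissociation were higher (*Atf3*, *Zfp36* and *Btg2*, list median 0.69) and 2 of the 5 mESC markers lower (*Zfp42* at -0.43 and *Lin28a* at -0.38, list median -0.25). In *Tsc2* KO, 2 of these immediate-early genes were higher and 1 lower (median -0.12), and 2 mESC markers were higher (*Nanog* at 0.91 and *Zfp42* at 0.52) and 1 lower (*Lin28a* at -1.16, median 0.014). The part of these shifts in the members' values was not tested.

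**Figure D4:**
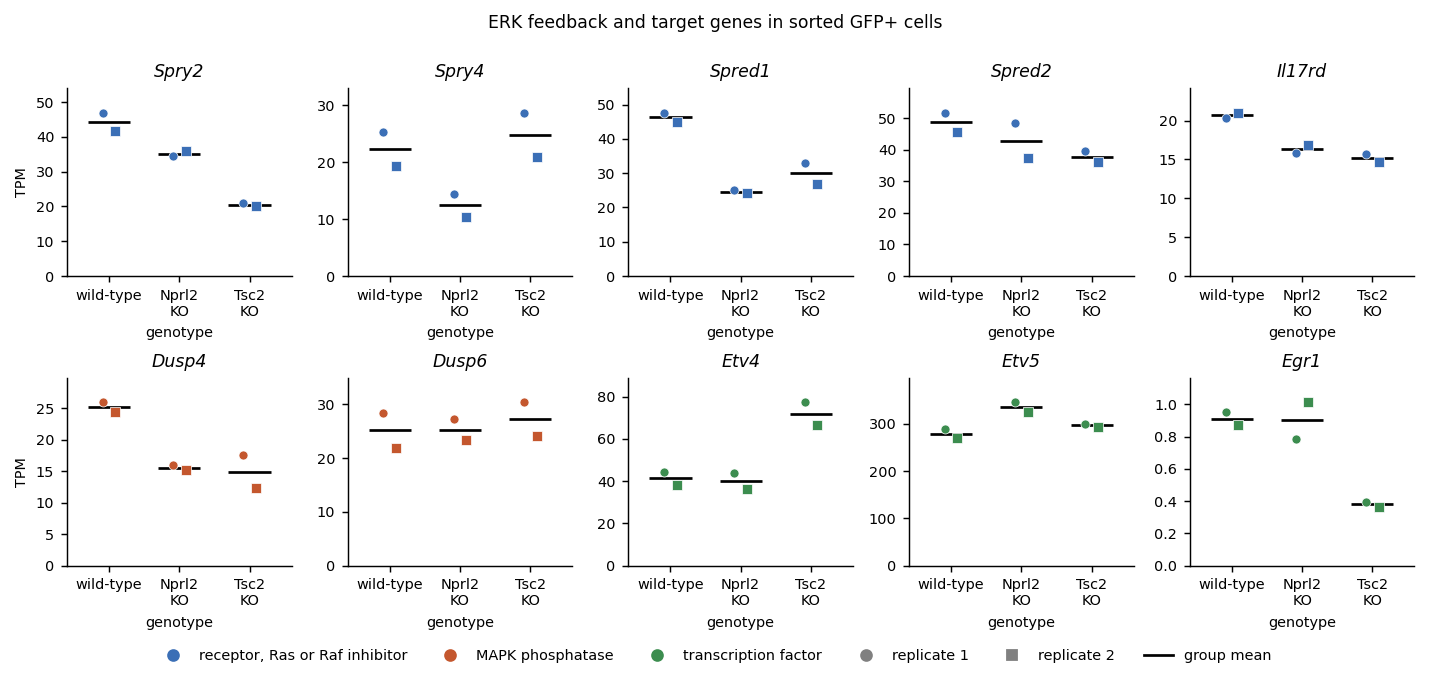
TPM (y axis, linear from 0) of the 10 genes in GFP+ cells of 3 genotypes (x axis), with 1 symbol per library, shapes for replicates 1 and 2, colours for the role of the gene and bars for the mean of 2 libraries. *Spry2* stepped down from wild-type through *Nprl2* KO to *Tsc2* KO without overlap, *Spred1* and *Dusp4* were lower in both KO genotypes, and *Etv4* was higher in *Tsc2* KO.

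*Spred1* and *Dusp4* were lower in both KO genotypes. *Spred1* was at 47.7 and 44.9 TPM in wild-type, 25.1 and 24.2 TPM in *Nprl2* KO and 33.1 and 26.7 TPM in *Tsc2* KO. The loss of *Nprl2* came with a log2 fold change of -0.86 ± 0.10 and the loss of *Tsc2* with one of -0.65 ± 0.10 (SE, n = 2 per genotype, adjusted p = 7.9e-04 and 7.5e-04), and both calls held in every alternative tried. *Dusp4* measured 25.9 and 24.4 TPM in wild-type, 16.0 and 15.1 TPM in *Nprl2* KO and 17.5 and 12.3 TPM in *Tsc2* KO, with changes of -0.66 ± 0.16 and -0.79 ± 0.16 (0.0288 and 0.00287). The KO libraries of both genes lay below wild-type without overlap, but the *Nprl2* call of *Dusp4* was lost without either wild-type library (0.136 without replicate 1 and 0.0815 without replicate 2) and without either *Nprl2* KO library (0.104 and 0.167).

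*Spry2* was at 47.0 and 41.7 TPM in wild-type, 34.5 and 35.9 TPM in *Nprl2* KO and 21.1 and 20.002 TPM in *Tsc2* KO. The 3 genotypes did not overlap. In *Tsc2* KO the change was -1.15 ± 0.11 (adjusted p = 1.2e-05), the lowest adjusted p of the 10 genes in this comparison, and *Tsc2* KO was also below *Nprl2* KO (-0.85 ± 0.11, 7.9e-05). Both calls held in every alternative tried. In *Nprl2* KO the difference of -0.30 ± 0.10 did not pass (0.102), and with a replicate block it did (0.0327).

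The other inhibitors differed less. *Il17rd* measured 20.3 and 21.0 TPM in wild-type, 15.9 and 16.9 TPM in *Nprl2* KO and 15.7 and 14.6 TPM in *Tsc2* KO, so that both KO genotypes lay below wild-type. The change of -0.48 ± 0.08 in *Tsc2* KO passed (adjusted p = 0.00111) and that of -0.29 ± 0.08 in *Nprl2* KO did not (0.0622), except with no filter on low counts (0.0390) or a replicate block (0.0143). *Spred2* was at 51.8 and 45.6, 48.5 and 37.3, and 39.5 and 36.2 TPM in wild-type, *Nprl2* KO and *Tsc2* KO. Its change in *Tsc2* KO, -0.40 ± 0.12 (0.0332), was lost without wild-type replicate 1 (0.188), without *Tsc2* KO replicate 1 or 2 (0.0527 and 0.206) and with limma on TPM (0.0791).

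*Spry4*, like *Spry2*, differed between the KO genotypes, but in the other direction. It measured 25.3 and 19.2 TPM in wild-type, 14.3 and 10.4 TPM in *Nprl2* KO and 28.7 and 20.8 TPM in *Tsc2* KO. Both *Nprl2* KO libraries were below all others, and *Tsc2* KO overlapped wild-type. The difference between *Tsc2* KO and *Nprl2* KO was 0.93 ± 0.24 (adjusted p = 0.0336), and it did not pass without *Nprl2* KO replicate 2 (0.110) or *Tsc2* KO replicate 1 (0.0584). The difference of *Nprl2* KO from wild-type was -0.81 ± 0.25 (0.135). That of *Tsc2* KO was 0.12 ± 0.24 (0.763). The *Nprl2* KO difference passed with DESeq2 (0.00143), with no filter on low counts (1.3e-10), with only the 2 genotypes in the fit (0.0493), with a replicate block (4.8e-06) and without either *Tsc2* KO library (0.0478 and 0.0489), and it did not pass without either library of the genotypes compared (0.111 to 0.412).

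*Etv4* rose in *Tsc2* KO alone among the members. It was at 44.4 and 38.1 TPM in wild-type, 44.1 and 36.5 TPM in *Nprl2* KO and 77.3 and 66.5 TPM in *Tsc2* KO, where the change was 0.76 ± 0.12 (adjusted p = 6.6e-04). *Tsc2* KO was also above *Nprl2* KO (0.77 ± 0.12, 4.2e-04), and *Nprl2* KO overlapped wild-type (-0.0076 ± 0.12, 0.986). Both *Tsc2* KO calls held in every alternative tried. Its paralog *Etv5* measured 289.6 and 269 TPM in wild-type, 346 and 325 TPM in *Nprl2* KO and 300.4 and 294 TPM in *Tsc2* KO. *Etv5* was higher in *Nprl2* KO than in wild-type (0.31 ± 0.06, 0.0133) and lower in *Tsc2* KO than in *Nprl2* KO (-0.25 ± 0.06, 0.00833), and its difference between *Tsc2* KO and wild-type was 0.05 ± 0.06 (0.557). The *Nprl2* KO call was lost without wild-type replicate 1 or 2 (0.0549 and 0.109), without *Nprl2* KO replicate 1 (0.0920) and with limma on TPM (0.0503). The difference between the KO genotypes was lost without *Nprl2* KO replicate 1 (0.0630), without *Tsc2* KO replicate 2 (0.0847) and with limma on TPM (0.0626).

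*Dusp6* and *Egr1* complete the set. *Dusp6* overlapped in all 3 genotypes, at 28.5 and 21.9 TPM in wild-type, 27.2 and 23.3 TPM in *Nprl2* KO and 30.4 and 24.04 TPM in *Tsc2* KO, with differences of 0.03 ± 0.16 and 0.07 ± 0.16 from wild-type (adjusted p = 0.939 and 0.774). *Egr1* was near the floor in all sorted libraries, at 0.952 and 0.870 TPM in wild-type (17 and 12 counts), 0.787 and 1.01 TPM in *Nprl2* KO (14 and 22 counts) and 0.397 and 0.367 TPM in *Tsc2* KO (8 counts in each). The 3 counts that a count of 0 allows correspond to 0.222 to 0.354 CPM in these libraries, for counting error only. CPM is another unit than TPM, so this floor is to be set beside the 8 to 22 counts of *Egr1*. Its change of -1.28 ± 0.44 in *Tsc2* KO passed (0.0450) but did not with DESeq2 (0.284) or without any 1 of the 6 libraries (0.0570 to 0.192), and that against *Nprl2* KO, -1.31 ± 0.42 (0.0310), did not with DESeq2 (0.255), without either *Nprl2* KO library (0.0570 and 0.180) or without either *Tsc2* KO library (0.100 and 0.151).

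**Figure D5:**
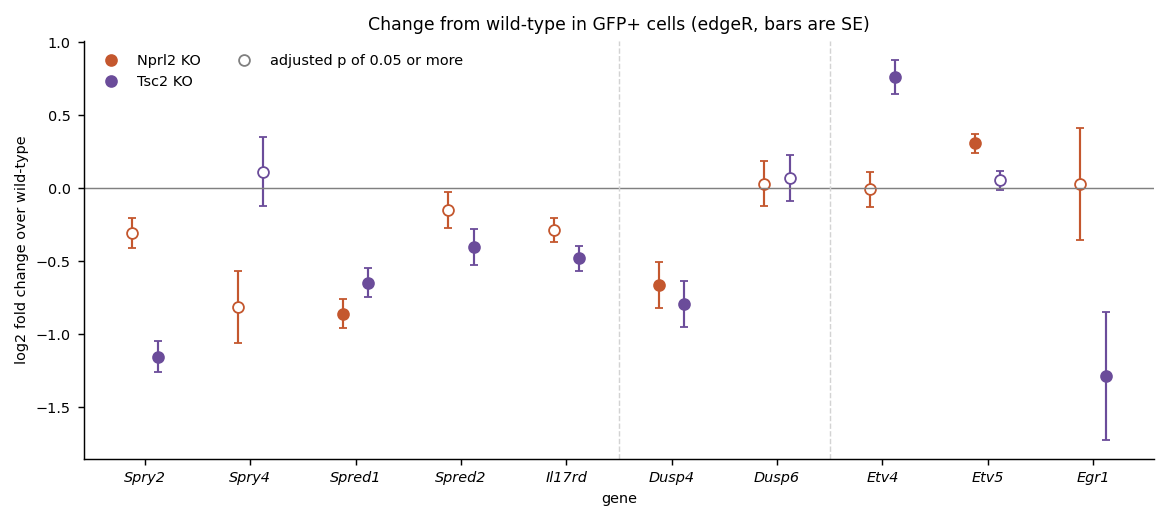
Log2 fold change over wild-type (y axis) of the 10 genes (x axis) in *Nprl2* KO and *Tsc2* KO GFP+ cells, from edgeR, with bars of 1 SE and open symbols where the adjusted p was 0.05 or more. *Spry2* at -1.15 and *Etv4* at 0.76 in *Tsc2* KO have small errors, while *Egr1* at -1.28 has the largest.

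Between the KO genotypes, 5 of the 10 genes passed, with *Spry4* and *Etv4* higher in *Tsc2* KO and *Spry2*, *Etv5* and *Egr1* lower, against 34.2% of all genes tested (17.5% higher and 16.6% lower). The count was 3 without *Nprl2* KO replicate 1 or *Tsc2* KO replicate 1. The 5 others differed by -0.25 to 0.21 on the log2 scale and did not pass. Of these, *Spred1* passed without *Tsc2* KO replicate 2 (0.38, adjusted p = 0.0130), *Spred2* passed without *Nprl2* KO replicate 2 (-0.43, 0.0199) and with no filter on low counts (0.0455), and *Spred1*, *Spred2* and *Il17rd* passed with a replicate block (0.0308, 0.0190 and 0.0461). The summed feeder markers differed between the 2 *Tsc2* KO libraries, and replicate 2 had the lower sum. Without it, the log2 fold changes against wild-type were -1.10 for *Spry2*, -0.48 for *Spred1*, -0.41 for *Il17rd* and -0.54 for *Dusp4*. Those of *Etv4*, *Spred2* and *Egr1* were 0.89, -0.32 and -1.20. This leaves 1 *Tsc2* KO library, which was also the higher for all 10 genes. The part of feeder cells in these values was not tested. None of the 6 feeder markers tested passed in either KO against wild-type in edgeR's test, at an unadjusted p under 0.05 or after adjustment, nor with DESeq2 or limma (0 of 6 in each), and *Lum*, a fibroblast marker, was at or below 0.171 TPM in all sorted libraries. Their median log2 fold changes were -0.16 in *Nprl2* KO and -0.72 in *Tsc2* KO, beside 0.00060 and 0.0048 over all genes tested. The 2 *Tsc2* KO libraries, with sums of 212 and 50.8 TPM, differ too widely for this test to decide whether feeder content changed.

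Of the other pathway genes, 2 of 12 adaptors and Ras regulators passed in *Nprl2* KO, both lower, and 1 higher and 1 lower of 19 other induced and feedback genes, beside 6.43% of all genes tested. The Ras gene *Nras* (-0.39 ± 0.08, adjusted p = 0.0119), the Ras inhibitor gene *Nf1* (-0.54 ± 0.11, 0.0152) and the ETS factor gene *Etv1* (-0.55 ± 0.10, 0.00625) were lower, and *Errfi1*, an inhibitor of the epidermal growth factor receptor, was higher (0.53 ± 0.12, 0.0232). None of the 7 Fgf ligands and receptors tested passed in edgeR's test, with 0 at an unadjusted p under 0.05 and 0 with DESeq2 or limma, and none of the 11 kinases passed, with 2 at an unadjusted p under 0.05, 1 with DESeq2 and 0 with limma. *Fgf4* was at 134 and 106 TPM in wild-type and 148 and 94.3 TPM in *Nprl2* KO, and *Fgfr1* at 48.7 and 48.1 TPM and 51.8 and 50.9 TPM. The list medians of log2 fold change were 0.044 for ligands and receptors, -0.094 for adaptors, 0.020 for kinases and 0.11 for the other induced genes.

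In *Tsc2* KO, 29.1% of all genes tested passed, 14.9% higher and 14.2% lower. Of the 7 Fgf ligands and receptors tested, 2 passed, both lower. *Fgf15* was at 8.83 and 6.30 TPM in wild-type and 0.617 and 0.894 TPM in *Tsc2* KO (-3.34 ± 0.42, adjusted p = 2.1e-04), and *Fgfr2* was at 18.1 and 18.5 TPM and 4.82 and 5.65 TPM (-1.83 ± 0.11, 8.2e-07). *Fgf4*, at 158 and 157 TPM, and *Fgfr1*, at 40.5 and 46.4 TPM, did not pass (0.399 and 0.0768). Adaptors and Ras regulators passed in 4 of 12 cases, with *Nras* (-0.42 ± 0.08) and *Sos1* (-0.28 ± 0.08) lower and *Grb2* higher (0.22 ± 0.07), and kinases in 4 of 11, with *Mapk3* (-0.65 ± 0.10) and *Braf* (-0.62 ± 0.15) lower and *Ksr1* higher (0.65 ± 0.19). Of the 19 other induced and feedback genes tested, 4 were higher and 4 lower. *Dusp9*, a further Erk phosphatase gene, was at 24.03 and 19.8 TPM in wild-type and 48.2 and 60.4 TPM in *Tsc2* KO (1.27 ± 0.12, 1.7e-05), while *Junb* (-1.45 ± 0.24, 8.3e-04) and the cyclin D1 gene *Ccnd1* (-0.87 ± 0.11, 3.9e-04) were lower. The list medians were -0.19, -0.15, 0.049 and -0.065 in the order of ligands and receptors, adaptors, kinases and other induced genes.

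Set side by side, the libraries of the day 0 cells and of the GFP+ wild-type cells overlapped in *Etv5* (279 TPM ± 21.5, SD, n = 3, and 279 ± 14.3, n = 2), *Dusp6* (20.3 ± 4.43 and 25.2 ± 4.65), *Spred2* (42.5 ± 3.56 and 48.7 ± 4.40), *Etv4* (63.1 ± 21.9 and 41.3 ± 4.47) and *Spry4* (12.4 ± 7.12 and 22.3 ± 4.31). They did not overlap in the 5 other genes. *Dusp4* was at 5.64 ± 1.02 on day 0 and 25.1 ± 1.12 in GFP+ wild-type, *Spred1* at 27.2 ± 5.63 and 46.3 ± 1.94, *Il17rd* at 16.5 ± 1.66 and 20.7 ± 0.505, *Spry2* at 61.9 ± 6.81 and 44.3 ± 3.75 and *Egr1* at 2.77 ± 1.87 and 0.911 ± 0.0579. The experiments were fitted separately and no test was made across them. The medium and any sorting of the day 0 cells are not stated in the sources used here. The summed feeder markers were 10.7 to 21.7 TPM on day 0 and 161 to 239 TPM in GFP+ wild-type. The part of these in the differences was not tested. The share of all genes without overlap between these groups was not counted. The count of 5 therefore cannot be compared with that of other genes.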

How the data were processed

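RNA sequencing of 12 time-course and 6 sorted GFP+ libraries was analysed from the deposited files of each library. Per the file headers and the submitters' processing notes, the authors quantified reads with kallisto 0.42.1 against RefSeq transcripts (build mm10), which gave estimated counts per transcript, not normalized. The same deposited files and a table per gene hold TPM, which the authors' pipeline corrected for effective transcript length within each library. Sorted GFP+ libraries were made with a stranded mRNA kit, and the preparation of the time-course libraries is not given in the sources used here. The authors' DESeq2 fold changes and p-values were not used.

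Of 34079 transcripts, 33713 were assigned to genes by RefSeq and 192 by GENCODE. Estimated counts were summed over 24296 genes and rounded, and the 174 transcripts without a gene held 1.65% to 3.57% of a library. Each experiment was fitted on its own with edgeR 4.0.16 (R 4.3.3; TMM, filterByExpr, robust quasi-likelihood test with all groups of the experiment), and p-values were adjusted over all genes tested by the Benjamini-Hochberg method at 0.05. Adjusted p-values without another tool named are from this test. Errors of log2 fold changes are SE and errors of TPM are SD. With 3 counts as the limit that a count of 0 allows, the floor was 0.203 to 0.354 CPM, and it covers counting error only. The alternatives were no filter on low counts, upper-quartile scaling, a minimum of 10 counts in each library, DESeq2 1.42.0, a replicate block, only the 2 groups compared, limma 3.58.1 on log2(TPM + 1), and each library left out in turn. The fits were tested on simulated data.

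The 10 genes and the lists of pathway and marker genes were chosen with earlier results of these data known. Named beside the 10 were, in each comparison with day 0 (days 1 and 3) or wild-type, up to 3 called genes per pathway list with the largest change, *Fgf4*, *Fgf5*, *Fgfr1*, *Fgfr2*, the targeted genes, marker genes, and the 5 genes closest to *Dusp6* and to *Spry4*. Among the adaptors and Ras regulators, 1 gene that this rule names is not reported here. Upstream sequences came from RefSeq (GRCm38.p6). Those of *Spry4*, *Egr1*, *Dusp4* and *Etv4* were not used here.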

Additional observations from a re-analysis of the deposited data

How the results depend on the processing

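No call of the 10 genes changed direction under any alternative. Of 80 results (10 genes in 8 comparisons), the call was the same in 79 with upper-quartile scaling, 76 with DESeq2, 75 with limma, 75 with no filter on low counts and 75 with only the 2 groups compared. With at least 10 counts in every library it was the same in all 77 that had a value, and *Egr1* had none in the sorted cells. With no filter on low counts, 1667 genes and 5 of the 10 members passed in *Nprl2* KO against wild-type, in place of 883 and 3. The share of calls that were higher moved from 52.4% to 63.8% between days 1 and 2 and from 51.3% to 61.7% between *Tsc2* KO and *Nprl2* KO with limma, which shifted the median of all genes by 0.107 (log2) in the first of these. With 1 library left out, the members that passed numbered 7 to 10 on day 1, 6 to 8 on day 2 and 7 to 10 on day 3 against day 0, 4 to 6 between days 1 and 2, 3 to 7 between days 2 and 3, 1 to 4 in *Nprl2* KO, 5 to 6 in *Tsc2* KO and 3 to 5 between the KO genotypes. The genes that passed then numbered 2969 (without day 2 replicate 2) to 5055 between days 2 and 3, 339 to 783 in *Nprl2* KO, 2225 to 3974 in *Tsc2* KO and 2974 to 4791 between the KO genotypes. A lone library was assumed to vary like the other groups. The cause of these changes was not tested. *Egr1* in the sorted cells, at 8 to 22 counts per library, is limited by depth.

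Groups share replicate numbers, and whether libraries of the same number share a culture or batch is not given. Correlations of the deviations of same-numbered libraries ranged from -0.113 to 0.133 in the time course. They were 0.164, 0.133 and 0.0848 in the sorted cells, where a comparison has 2 pairs. With a replicate block, 2072 genes and 6 members passed in *Nprl2* KO against wild-type and 8 members between the KO genotypes, and 72 of the 80 calls were the same.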
